A study of Mus musculus with 6 samples.

Results

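The genes described here are 10 transcription factor genes of the immediate early response: the Fos family (Fos, Fosb, Fosl1, Fosl2), the Jun family (Jun, Junb, Jund), Atf3, Egr1 and Myc. They were chosen by name, with earlier results of these data known, and all 10 were found among the 22556 genes listed for the mouse pancreas. RNA of the whole pancreas had been sequenced from 6 male wild-type C57BL/6 mice, 8 weeks old by the sample labels, in 3 groups of 2. Saline mice were the controls. AP mice had acute pancreatitis (AP), brought on with caerulein, which overstimulates the cholecystokinin receptors of acinar cells and was given 10 times at 200 μg/kg. PolyI:C-pretreated AP mice, here called pretreated mice, received 10 mg/kg of the synthetic double-stranded RNA polyI:C, a ligand of Toll-like receptor 3, ahead of the same caerulein course. The study's model ends 24 h after caerulein is first given, so each group is seen at 1 time point, well after the minutes to hours in which these genes usually peak.

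Fos and Jun proteins pair through leucine zippers to form activator protein 1 (AP-1), which binds DNA and switches on genes of growth, matrix turnover and inflammation. Immediate early genes are copied within minutes of a stimulus by factors already present in the cell, downstream of the MAP kinases, and their mRNAs are usually short-lived. Acinar cells, which make the digestive enzymes, are known to induce these genes when they are overstimulated or isolated. The abbreviation AP-1 is unrelated to AP for acute pancreatitis.

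The sequences before the start sites of Fos, Jun, Junb and Atf3 are shown because Fos had the largest increase of the Fos family in AP mice, Junb and Jun those of the Jun family, and Atf3 that of the 10 genes, and because cAMP response element and AP-1 type sites are the known entry points for stimulus signals at such genes. The sequences are from RefSeq (GRCm38.p6), written 5′ to 3′ on the strand of the gene, and end at the base before the RefSeq start site. Capitals mark TGACG, TNACNTCA or their reverse complements, where N is any base.
Fos, chr12:85473640-85473889, plus strand: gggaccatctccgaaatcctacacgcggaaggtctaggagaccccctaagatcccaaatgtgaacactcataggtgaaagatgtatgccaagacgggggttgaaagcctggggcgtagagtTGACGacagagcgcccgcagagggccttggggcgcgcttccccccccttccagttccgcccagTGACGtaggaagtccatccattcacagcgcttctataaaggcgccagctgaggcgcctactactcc
Jun, chr4:95052223-95052472, minus strand: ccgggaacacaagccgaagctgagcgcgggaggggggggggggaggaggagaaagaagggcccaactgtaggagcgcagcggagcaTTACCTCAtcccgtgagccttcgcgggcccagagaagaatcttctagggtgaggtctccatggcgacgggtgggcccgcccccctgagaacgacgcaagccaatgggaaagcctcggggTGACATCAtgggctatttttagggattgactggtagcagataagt
Junb, chr8:84978749-84978998, minus strand: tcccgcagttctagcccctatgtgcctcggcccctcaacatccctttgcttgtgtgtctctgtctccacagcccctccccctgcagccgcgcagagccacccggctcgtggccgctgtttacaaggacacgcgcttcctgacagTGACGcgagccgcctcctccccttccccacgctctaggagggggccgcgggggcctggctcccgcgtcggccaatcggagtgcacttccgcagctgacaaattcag
Atf3, the last 30 bases, chr1:191183334-191183363, minus strand: cctggaagctattaatagcaTTACGTCAgc
Counted back from the start site, with −1 as the last base shown, the capitals stand at −129 to −125 and −66 to −62 for Fos, −164 to −157 and −45 to −38 for Jun, −106 to −102 for Junb, and −10 to −3 for Atf3. In the Atf3 run, the 8 capitals hold TNACNTCA together with the reverse complement of TGACG, so these overlap. Only the end of the Atf3 window is given. The whole window overlaps an annotated exon of Atf3, and which of its bases do was not worked out.

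Windows before RefSeq start sites were searched for 7 of the 10 genes, and not for Fosl1, Egr1 and Myc. Searched on both strands in the 250 bases before the start, TGACG was found in 4 of the 7 (Fos, Fosb, Junb, Atf3) and in 17.77% of 32851 mouse windows of the same length. TNACNTCA was found in 3 of the 7 (Jun, Jund, Atf3) and in 13.99% of all windows. TGANTCA, the usual AP-1 site, was found in 0 of the 7 and in 6.749% of all windows. The CArG box bound by serum response factor was likewise found in 0 of the 7 and in 1.467% of all windows, and TATAAA in 1 of the 7 (Fos) and in 12.37%. Bases further upstream than 250 were not searched, so a count of 0 does not show that these genes lack the site. The searched letters were chosen with these sequences in view, and a match describes letters and not a bound site. The GENCODE gene start lies at the same base for Fos and Jun and 30 bases further downstream for Junb. For Jund it lies 1210 bases downstream of the RefSeq start, so that the window searched is not next to it. For Fosl2 and Atf3 it lies upstream of the RefSeq start (-671 and -34706 bases).

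The values are TPM (transcripts per 1000000), in which a gene's reads are divided by its length and scaled to a sum of 1000000 per library. The number of reads was estimated from the spacing of low values at 3296648 and 3974165 in saline mice, 6933658 and 8846056 in AP mice, and 8819746 and 10859243 in pretreated mice, so low genes rested on the fewest reads in saline mice. Genes above 1% of any library, 15 in all, held 27.6% and 30.4% of TPM in saline mice and between 15.4% and 19.0% in the other mice. Differences are given on the log2(TPM + 0.5) scale with their standard error (SE) from limma, which slightly understates changes of low genes. A gene was called when its Benjamini-Hochberg adjusted p over the 16814 tested genes was at most 0.05 and its change at least 2-fold. Over all tested genes the median difference was 0.45 between AP and saline mice, 0.04 between pretreated and AP mice and 0.48 between pretreated and saline mice, and median-of-ratios scaling brought it to 0.04, 0.01 and 0.04. Of 23 acinar marker genes, 10 had values, and their summed TPM was 103020 and 114610 in saline mice, 25118 and 36465 in AP mice, and 15381 and 19386 in pretreated mice, so the tissue carried the RNA of exocrine pancreas. Sycn supplied 86866 and 98753 TPM of these sums in saline mice, 21348 and 31898 in AP mice, and 11044 and 14466 in pretreated mice. The sums therefore mostly follow 1 gene. Digestive enzyme genes such as Cpa1, Cela1, Ctrb1, Prss2 and Pnlip were among the acinar markers without values. The TPM of each library thus sum to 1000000 without these genes.

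To find how the immediate early genes stood in AP mice, these were compared with saline mice. Of the 10 genes, 9 reached the mean of 1 TPM needed for a test, and 7 of the 9 rose: Atf3, Junb, Fos, Egr1, Jun, Fosl2 and Jund. Among all tested genes 18.2% were called higher and 4.03% lower, and 0 of the 9 genes were called lower. The groups did not overlap in TPM for 8 of the 9, with higher values in AP mice, as was so for 52.6% of all tested genes. The median difference was 2.11 over the 9 genes against 0.45 over all tested genes. With median-of-ratios scaling the calls were 1534 higher and 1249 lower over all genes, in place of 3053 and 677, and the same 7 of the 10 genes were called higher.

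**Figure D1:**
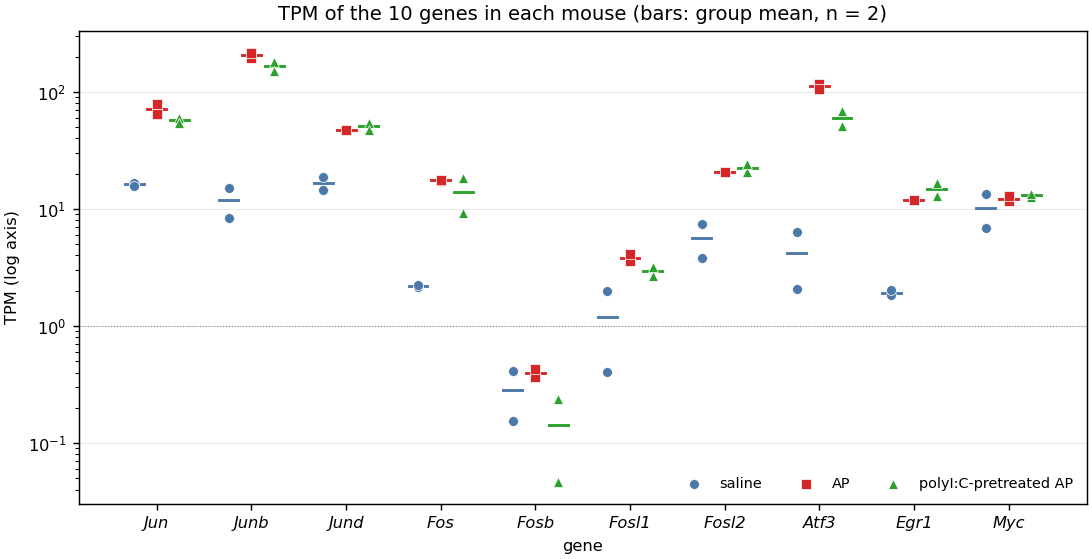
TPM of each of the 10 genes (x axis) in each mouse, on a log axis. Points are mice, coloured by group, and short bars are group means (n = 2 per group); the dotted line is 1 TPM. The AP and pretreated points of Junb and Atf3 lie far above the saline points, while the Myc points overlap and Fosb stays below 1 TPM in every mouse.

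Junb codes for the Jun protein that is known both to form AP-1 and to restrain the activity of c-Jun. Junb (ENSMUSG00000052837, GRCm38 chromosome 8, 84974484 to 84978718) measured 15.2 and 8.42 TPM in saline mice and 194 and 216 TPM in AP mice. Both AP mice were far above both saline mice, and Junb had the highest TPM of the 10 genes in AP mice. The difference was 4.12 (SE 0.25, adjusted p = 0.000108), or a 17.4-fold higher mean TPM. Of its 2301 exon bases, 173 lie within Prdx2 on the opposite strand, a gene that measured between 39.9 and 102 TPM in the 6 mice.

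Jun codes for c-Jun, the founding partner of the Fos proteins and a substrate of the JNK kinases. Jun (ENSMUSG00000052684, chromosome 4, 95049034 to 95052222) measured 16.8 and 15.6 TPM in saline mice and 79.4 and 64.4 TPM in AP mice. The groups lay well apart, and the difference was 2.11 (SE 0.14, adjusted p = 0.000137), 4.45-fold in mean TPM. Jund, whose product is expressed at a steady level in many resting tissues, is usually the least inducible Jun gene. Jund (ENSMUSG00000071076, chromosome 8, 70698949 to 70700616) measured 18.9 and 14.6 TPM in saline mice and 47.4 and 46.8 TPM in AP mice. Its difference was 1.47 (SE 0.18, adjusted p = 0.00111), the smallest of the 7 that rose, and was 1.03 with median-of-ratios scaling (adjusted p = 0.00545), close to the 2-fold limit. Antisense genes overlap 232 of 3189 exon bases of Jun and 877 of 1668 of Jund, and whether reads were counted by strand is not given in the sources used here.

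The make-up of the Jun family also differed between AP and saline mice. Its summed TPM was 50.8 and 38.6 in saline mice and 320.4 and 327 in AP mice. Junb supplied 29.9% and 21.8% of that sum in saline mice and 60.4% and 66.0% in AP mice. The share of Jund was 37.2% and 37.9% in saline mice and 14.8% and 14.3% in AP mice, and the share of Jun was 33.0% and 40.3%, then 24.8% and 19.7%. No group overlapped another in any of these shares between saline and AP mice. The shares do not depend on how libraries are scaled, and they were not tested.

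Fos codes for c-Fos, the archetypal immediate early protein, which needs a Jun partner to bind DNA. Fos (ENSMUSG00000021250, chromosome 12, 85473890 to 85477273) measured 2.14 and 2.23 TPM in saline mice and 17.5 and 17.7 TPM in AP mice. The 2 mice of each group were nearly equal, and the difference was 2.75 (SE 0.33, adjusted p = 0.00107), 8.05-fold in mean TPM. In reads the saline values are small, an estimated 7.4 and 6.2 reads against 87.8 and 112.7 in AP mice.

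Fosl2 and Fosl1 code for Fra-2 and Fra-1, Fos proteins without the strong activating end of c-Fos that tend to appear later after a stimulus. Fosl2 (ENSMUSG00000029135, chromosome 5, 32135801 to 32157842) measured 7.48 and 3.81 TPM in saline mice and 20.6 and 20.8 TPM in AP mice. The groups did not overlap, and the difference was 1.85 (SE 0.27, adjusted p = 0.00222). That call was lost when AP replicate 1 (adjusted p = 0.0538) or AP replicate 2 (adjusted p = 0.0577) was left out, with a difference of 1.86 and 1.85.

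Fosl1 (ENSMUSG00000024912, chromosome 19, 5447547 to 5455946) measured 0.401 and 1.97 TPM in saline mice and 3.56 and 4.12 TPM in AP mice. Both AP mice were above both saline mice, but in TPM the saline mice differed from each other by about as much as saline replicate 2 differed from AP replicate 1. The difference was 1.54 (SE 0.59, adjusted p = 0.0787) and did not pass, and without saline replicate 2 it was 2.27 (adjusted p = 0.0188, with 0.0188 to 0.273 over all alternatives). The saline values rest on an estimated 1.2 and 4.8 reads, and 1163 of the 2033 exon bases of Fosl1 lie within Ccdc85b on the opposite strand, which measured between 50.3 and 78.4 TPM. Fosb (ENSMUSG00000003545, chromosome 7, 19302696 to 19310051), a close relative of Fos that is strongly induced in stimulated neurons, measured 0.414 and 0.153 TPM in saline mice and 0.368 and 0.426 TPM in AP mice. It was below 1 TPM in every mouse, on at most an estimated 7.2 reads, and was not tested.

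Within the Fos family, Fosl2 had the highest TPM in every mouse, with 71.7% and 46.7% of the family's sum in saline mice and 49.1% and 48.2% in AP mice. The share of Fos was 20.5% and 27.3% in saline mice and 41.6% and 41.2% in AP mice, without overlap. The summed TPM of the Jun genes was 4.87 and 4.73 times that of the Fos genes in saline mice and 7.63 and 7.60 times in AP mice. Jun transcripts were therefore the more abundant in all 4 of these mice, by a larger factor in AP mice.

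**Figure D2:**
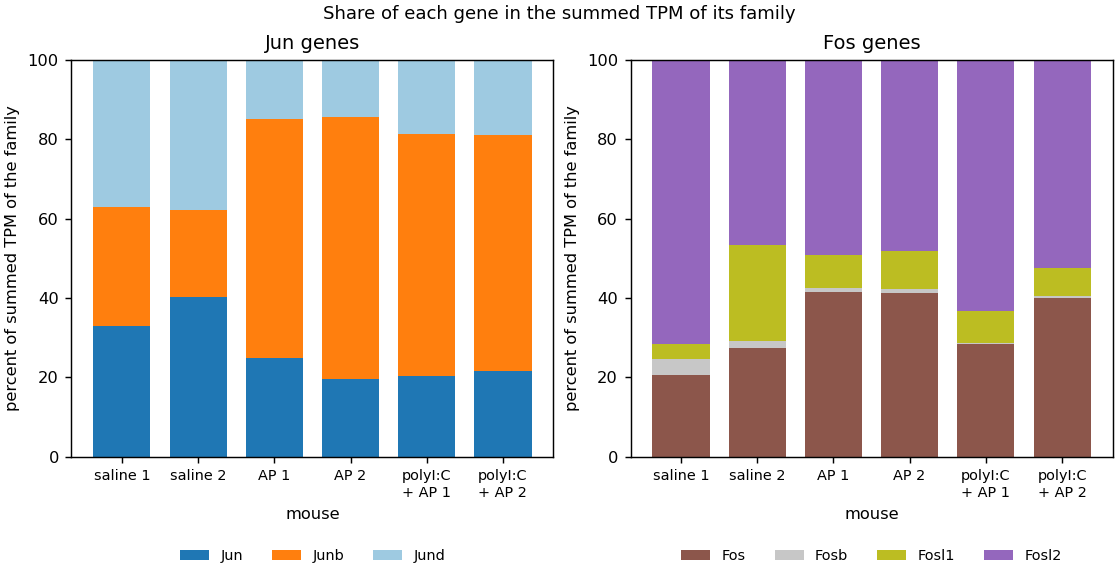
Share of each gene in the summed TPM of the Jun genes (left) and of the Fos genes (right), in percent, in each of the 6 mice; bars are stacked to 100 percent. The Junb part of the left bars is 29.9% and 21.8% in saline mice and between 59.6% and 66.0% in the other 4 mice, while in the right bars Fosl2 is the largest part in all 6.

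Atf3, a basic leucine zipper factor of the stress response that pairs with Jun proteins and often represses its targets, had the largest increase of the 10 genes. Atf3 (ENSMUSG00000026628, chromosome 1, 191170296 to 191218039) measured 2.05 and 6.31 TPM in saline mice and 118 and 106 TPM in AP mice. The saline mice differed 3-fold from each other, yet both lay more than 10-fold below the AP mice. The difference was 4.75 (SE 0.42, adjusted p = 0.000344), 26.7-fold in mean TPM, on an estimated 6.5 and 16.1 reads in saline mice against 541.8 and 614.4 in AP mice.

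Egr1 codes for a zinc finger factor that is induced by the same signals as Fos and binds GC-rich sites rather than AP-1 sites. Egr1 (ENSMUSG00000038418) measured 1.82 and 2.02 TPM in saline mice and 11.9 TPM in both AP mice. Replicates were close, and the difference was 2.36 (SE 0.20, adjusted p = 0.000273), 6.20-fold in mean TPM. Myc codes for a helix-loop-helix factor of growth and ribosome production that classically follows Fos after growth factor stimulation. Myc (ENSMUSG00000022346, chromosome 15, 61985391 to 61990374) measured 13.3 and 6.87 TPM in saline mice and 11.7 and 12.8 TPM in AP mice. The AP mice lay between the saline mice, and the difference of 0.33 (SE 0.32, adjusted p = 0.45, 95% interval from −0.42 to 1.09) did not pass. It was −0.10 with median-of-ratios scaling and −0.12 without saline replicate 2.

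The question of the pretreated group was whether pretreatment changed what caerulein induced. Against AP mice, 0 of the 9 tested genes were called in either direction by limma, 0 of the 9 had an unadjusted p under 0.05, and 0 were called by voom on estimated reads. Among all tested genes 0.44% were called higher and 0.404% lower. The differences ran from −0.92 for Atf3 to 0.29 for Egr1, with adjusted p from 0.381 to 0.943 and a median of −0.32 against 0.04 over all tested genes. Of the 9 genes, 4 were lower in both pretreated mice than in both AP mice (Atf3, Jun, Junb, Fosl1), where 22.1% of all tested genes were. The opposite held for 2 (Egr1, Jund), where 27.7% of all tested genes had higher values without overlap.

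Atf3 measured 68.0 and 50.6 TPM in pretreated mice, below the 118 and 106 TPM of AP mice and above the 2.05 and 6.31 TPM of saline mice. Its mean was 0.531 times that of AP mice. The difference of −0.92 (SE 0.42, adjusted p = 0.408) did not pass, and its 95% interval ran from −1.93 to 0.09. With voom the difference was −0.96 with an adjusted p of 0.0243, under the 2-fold limit, and over all alternatives the adjusted p lay between 0.0243 and 0.824. A fall by more than 2-fold and no fall at all both lie inside this interval, as they do for Fos and Fosl1.

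The other tested members lay closer to AP mice. Jun measured 59.8 and 54.6 TPM in pretreated mice, a difference of −0.32 (95% interval from −0.66 to 0.01, adjusted p = 0.381). Junb measured 179 and 150.2 TPM, a difference of −0.32 (interval from −0.92 to 0.29, adjusted p = 0.661). Both genes were lower in these mice than in AP mice without overlap, and the intervals hold no change of 2-fold either way. Fos measured 9.28 and 18.4 TPM, replicate 1 below and replicate 2 above both AP mice. Its difference of −0.41 (interval from −1.21 to 0.39, adjusted p = 0.662) became 0.06 without pretreated replicate 1.

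Egr1 measured 16.5 and 12.9 TPM, Jund 54.7 and 47.5 TPM and Fosl2 20.6 and 24.1 TPM in pretreated mice. The differences from AP mice were 0.29, 0.11 and 0.10, and the 95% intervals of these 3 genes, of Jun, of Junb and of Myc (12.6 and 13.4 TPM) lay within 2-fold either way. Fosl1 measured 2.68 and 3.20 TPM, a difference of −0.34 with an interval from −1.74 to 1.06, too wide to tell a fall from a rise. Fosb measured 0.0462 and 0.239 TPM, below both AP mice, on an estimated 0.8 and 4.9 reads. A p that misses the threshold does not show that the groups were alike, and with 2 mice a group only the genes with narrow intervals limit how far they could differ.

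**Figure D3:**
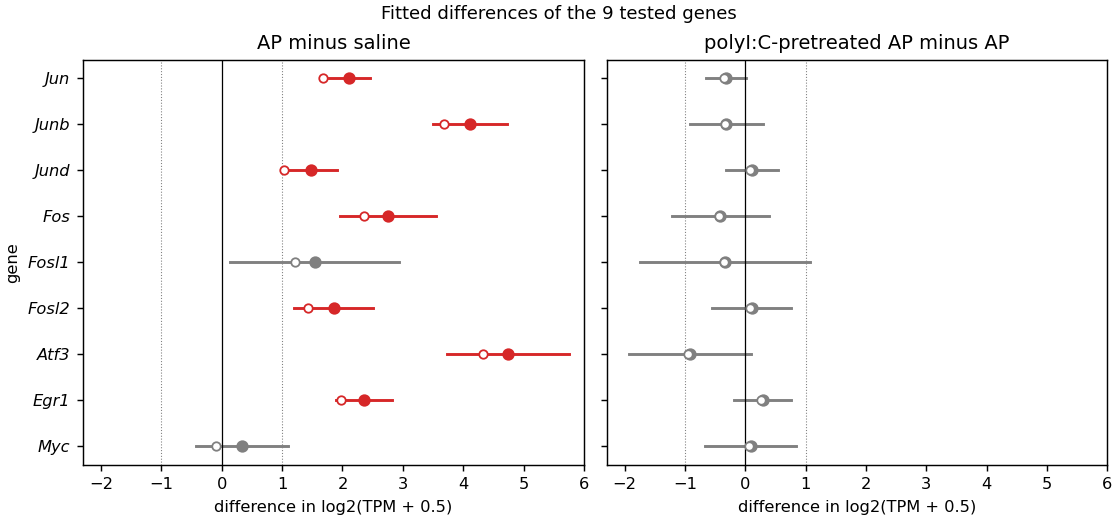
Difference in log2(TPM + 0.5) of the 9 tested genes (y axis) between AP and saline mice (left) and between pretreated and AP mice (right). Filled points are the fitted differences with 95% intervals, open points the differences with median-of-ratios scaling, red marks called genes and dotted lines 2-fold. On the left 7 genes lie to the right of the 2-fold line and are red, Fosl1 lies there too but was not called, and on the right every interval crosses 0.

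Against saline mice, the same 7 genes were called higher in pretreated mice, 7 of 9 tested and 0 lower, where 16.9% of all tested genes were called higher and 2.97% lower. This comparison shares its saline mice with the first. Its differences were 3.83 for Atf3, 3.80 for Junb, 2.64 for Egr1, 2.34 for Fos, 1.96 for Fosl2, 1.79 for Jun and 1.59 for Jund. Fosl1 (1.20, adjusted p = 0.154) and Myc (0.42, adjusted p = 0.34) did not pass. Without saline replicate 2 Fosl1 was called (1.93, adjusted p = 0.0291) and Myc was −0.03. Without pretreated replicate 2 Fosl2 was no longer called (adjusted p = 0.0562), and voom did not call Fos (adjusted p = 0.0542, with 0.00146 to 0.0542 over all alternatives). In the Jun family Junb again had the largest share, 61.0% and 59.6%, with 18.6% and 18.8% for Jund. The summed TPM of the Jun genes was 9.009 and 5.495 times that of the Fos genes in pretreated mice. These ratios lie on either side of those of AP mice, 7.63 and 7.60.

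Markers of some cell types moved with these comparisons. Over all tested genes, 18.2% were called higher and 4.03% lower in AP than in saline mice. Between pretreated and AP mice these shares were 0.44% and 0.404%. Of 16 monocyte and macrophage markers, 14 were called higher in AP than in saline mice and 7 lower in pretreated than in AP mice, and their summed TPM was 532 and 816 in saline mice, 3119 and 3623 in AP mice, and 789 and 935 in pretreated mice. Lyz2 held most of these sums in saline and AP mice, and without it they were 224 and 372, then 1228 and 1505, then 669 and 732 TPM. Between pretreated and saline mice 5 of the 16 were called higher and 2 lower, Lyz2 among the latter. Over all tested genes these shares were 16.9% and 2.97%. Of 10 neutrophil markers with values, 6 were tested and 3 were called higher in AP mice, with sums of 5.15 and 16.9, then 64.9 and 71.2, then 22.5 and 45.2 TPM. Between pretreated and AP mice 0 of these 6 were called in either direction, and 3 were lower without overlap, beside 22.1% of all tested genes. Retnlg averaged 31.7 TPM in AP mice and 4.51 TPM in pretreated mice, so the lower neutrophil sums of pretreated mice mostly follow 1 gene. The 10 acinar markers had 7 called lower in AP than in saline mice, and 3 higher and 0 lower in pretreated than in AP mice. Of 13 duct markers, 8 were called higher and 1 lower in AP mice, with sums of 37321 and 39364, then 41838 and 43115, then 28400 and 35876 TPM. Tff2, the marker called lower, supplied 34940 and 36643 TPM of the saline sums, and without it the duct sums were 2381 and 2721, then 33609 and 36052, then 25012 and 31974 TPM. Of 12 fibroblast and stellate markers 5 were called higher, with sums of 649 and 921, then 886 and 1082, then 750.3 and 898 TPM. Of the endothelial, lymphocyte, adipocyte and red blood cell markers, 10, 5, 5 and 5 were tested. In AP against saline and in pretreated against AP mice 0 of them were called. The 5 red blood cell markers were lower without overlap in pretreated than in AP mice. Of 10 islet markers, 1 was called lower in AP than in saline mice and 0 were called between pretreated and AP mice. No marker with a value was at 0 in all 6 mice. In whole tissue, more cells of a type cannot be told apart from more RNA per cell, and the part of these cells in the differences of the 10 genes was not tested.

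Other genes around AP-1 were read from lists written by hand, with earlier results of these data known. Of 40 further immediate early and feedback genes, 35 were tested, and 17 rose and 1 fell in AP mice, with a median difference of 1.13. In the same fit 18.2% of all tested genes were called higher and 4.03% lower. With median-of-ratios scaling the counts were 11 and 2, beside 1534 and 1249 of the 16814 tested genes. The largest rises were in Ier3, an early gene that affects cell survival, Gadd45a, a growth arrest and DNA damage gene, and Dusp5, a phosphatase that switches ERK off in the nucleus. Ier3 measured 6.66 and 14.9 TPM in saline mice, 268 and 279 TPM in AP mice, and 121 and 96.3 TPM in pretreated mice. Both pretreated mice lay well below AP mice, a difference of −1.34 (adjusted p = 0.138) that did not pass, though voom called it (adjusted p = 0.00335, with 0.00335 to 0.617 over all alternatives). Dusp5 measured 1.66 and 1.36, then 30.8 and 27.8, then 12.5 and 13.9 TPM. Its difference between the latter groups was −1.13 (adjusted p = 0.0581), called by voom (adjusted p = 0.0137, with 0.0137 to 0.391 over all alternatives) and by a few other settings.

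Gadd45a measured 1.14 and 0.351 TPM in saline mice, 18.1 and 23.4 TPM in AP mice, and 16.3 and 14.6 TPM in pretreated mice. Sgk1, a kinase gene induced by steroids and cell stress, was the gene of this list that fell. It measured 81.3 and 64.5 TPM in saline mice, 28.1 and 32.5 TPM in AP mice, and 63.6 and 57.5 TPM in pretreated mice. Its difference from saline in AP mice was −1.25 (adjusted p = 0.000935), and its difference between pretreated and AP mice of 0.99 had an adjusted p of 0.0384 but missed 2-fold. Between pretreated and AP mice limma called 0 of the 35 in either direction, with 2 higher and 9 lower at an unadjusted p under 0.05, and voom called Ier3 and Dusp5 lower. The share of all tested genes at that unadjusted limit is not given, here or for the lists below. Counts at that limit therefore cannot be judged against all genes. Without saline replicate 1 or 2 limma called 1 higher, Gadd45g (1.11, adjusted p = 0.0489), a growth arrest gene. The median difference was −0.34, while 23 were lower and 4 higher without overlap, beside 22.1% and 27.7% of all tested genes.

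Known targets of AP-1 also stood higher in AP mice. Of 24 listed genes 19 were tested, and 14 rose and 0 fell, beside 18.2% higher and 4.03% lower over all tested genes, with a median difference of 1.95. With median-of-ratios scaling the counts were 13 and 1, beside 1534 and 1249 over all tested genes. Cd44, a receptor for hyaluronan, measured 3.83 and 2.55 TPM in saline mice and 43.6 and 44.6 TPM in AP mice, and Timp1, an inhibitor of matrix metalloproteinases, measured 9.90 and 1.22 TPM and then 75.7 and 72.5 TPM. The Cd44 difference was 3.62 (adjusted p = 4.9e-05) and that of Timp1 4.14 (adjusted p = 0.0049), the latter not called without AP replicate 1 (adjusted p = 0.0847) or AP replicate 2 (adjusted p = 0.0866). Sprr1a, a gene of the cornified envelope that is induced in injured cells, was listed at 0 in both saline mice and measured 62.7 and 29.8 TPM in AP mice.

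Sprr1a and Plau, which codes for the urokinase plasminogen activator, were the 2 AP-1 targets called in both comparisons, up with AP and down with polyI:C. Sprr1a measured 4.73 and 4.89 TPM in pretreated mice, a difference from AP mice of −3.04 (adjusted p = 0.0272). Plau measured 44.1 and 41.3 TPM in saline mice, 135 and 124 TPM in AP mice, and 51.6 and 38.2 TPM in pretreated mice, so that its level with polyI:C overlapped that of saline mice. Its difference was 1.59 (adjusted p = 0.000546) in AP against saline mice and −1.53 (adjusted p = 0.0161) in pretreated against AP mice. Both polyI:C calls were lost when any of the 6 mice was left out, with adjusted p from 0.079 for saline replicate 1 or 2 to 0.356 for pretreated replicate 2 for Sprr1a and from 0.0533 to 0.322 for Plau, so the count of targets called lower was then 0. Voom called 4 lower, with Plaur, the urokinase receptor gene, and Vim, which codes for vimentin, beside these. The median difference of the 19 targets was −0.50, and 12 were lower and 1 higher without overlap, beside 22.1% and 27.7% of all tested genes.

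**Figure D4:**
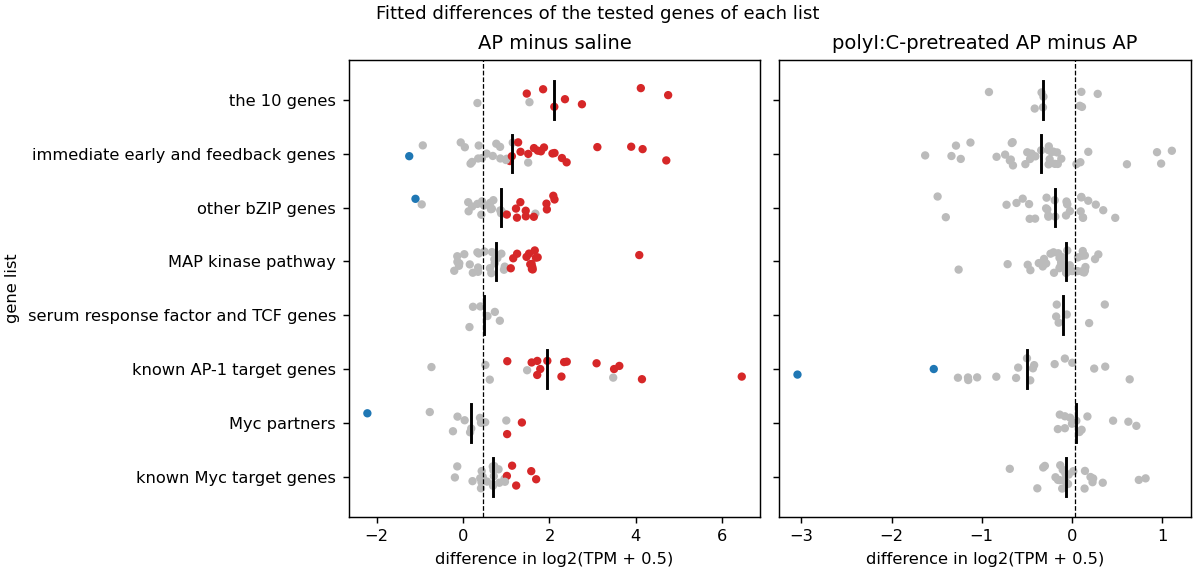
Difference in log2(TPM + 0.5) of every tested gene of each list (y axis) between AP and saline mice (left) and between pretreated and AP mice (right). Each point is a gene, red if called higher and blue if called lower, thick bars are list medians, and the dashed line is the median of all tested genes (0.45 and 0.04). Of the lists plotted, the 10 genes and the AP-1 targets have the rightmost medians on the left, 2.11 and 1.95, and on the right the 2 blue points are Sprr1a and Plau.

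Of 31 other basic leucine zipper genes, which include partners and competitors of Fos and Jun, 29 were tested. In AP mice 11 rose and 1 fell, beside 18.2% higher and 4.03% lower over all tested genes in the same fit. With median-of-ratios scaling the counts were 6 and 2, beside 1534 and 1249 over all tested genes. The number that rose was 5 without AP replicate 1 and 6 without AP replicate 2, and the number that fell was 2 without saline replicate 1 or AP replicate 1 and 0 without saline replicate 2. Batf, which pairs with Jun proteins in lymphocytes, measured 3.59 and 1.76 TPM in saline mice and 10.8 and 14.3 TPM in AP mice. The call of Batf (2.09, adjusted p = 0.0066) was lost without AP replicate 1 (adjusted p = 0.0547) or AP replicate 2 (adjusted p = 0.0834). Ddit3, the CHOP factor of the unfolded protein response, rose from 23.5 and 22.3 TPM to 99.5 and 80.3 TPM (1.94, adjusted p = 0.000347). Atf5 fell from 84.5 and 98.7 TPM to 40.5 and 44.1 TPM (−1.10, adjusted p = 0.00111, and −0.99 without saline replicate 2).

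Upstream of AP-1, 36 of 37 MAP kinase pathway genes were tested, and 14 rose and 0 fell in AP mice, beside 18.2% higher and 4.03% lower over all tested genes. With median-of-ratios scaling the counts were 11 and 0, beside 1534 and 1249 over all tested genes. Mapk11, which codes for p38 beta, measured 0.281 and 1.38 TPM in saline mice, 18.4 and 21.7 TPM in AP mice, and 9.69 and 6.71 TPM in pretreated mice. Its rise in AP mice was 4.08 (adjusted p = 0.00063), the largest of the list. Map3k20, the ribotoxic stress kinase ZAK, rose by 1.73 (adjusted p = 3e-04), and Map3k8, the kinase TPL2, by 1.69 (adjusted p = 0.00419), a call lost without AP replicate 1 (adjusted p = 0.0619) or 2 (adjusted p = 0.0669). Serum response factor and its partners, which drive Fos and Egr1, had 6 genes tested, and limma called 0, with 3 higher at an unadjusted p under 0.05 and 0 called by voom. Without saline replicate 1 the count was 1. The list had a median of 0.48 against 0.45 over all genes.

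Around Myc, 13 of 15 partner genes were tested, and 2 rose (Zbtb17 and Trrap) and 1 fell in AP mice, beside 18.2% higher and 4.03% lower over all tested genes. With median-of-ratios scaling the counts were 0 and 1, beside 1534 and 1249 over all tested genes. Mycn, a close relative of Myc, was the gene that fell, from 14.0 and 9.66 TPM to 3.01 and 1.44 TPM (−2.22, adjusted p = 0.00555), a call lost without AP replicate 2 (−1.79, adjusted p = 0.0731). Zbtb17, which codes for the Myc partner Miz-1, rose by 1.36 (adjusted p = 0.00257, and 0.0546 without AP replicate 2), and Trrap, a histone acetyltransferase cofactor, by 1.02 (adjusted p = 0.00103), which was 0.87 without saline replicate 2. Of 25 known Myc targets, 5 rose and 0 fell, a share near the 18.2% of all tested genes called higher. With median-of-ratios scaling 2 were called higher, beside 1534 over all tested genes. Ldha, the lactate dehydrogenase of glycolysis, rose by 1.69 (adjusted p = 0.000194), Rrp9, of ribosome assembly, by 1.58 (adjusted p = 0.003, and 0.0604 without AP replicate 2) and Cdk4, a cell cycle kinase, by 1.23 (adjusted p = 0.000478). The list median was 0.69 beside 0.45 over all genes. Between pretreated and AP mice limma called 0 genes of the bZIP, MAP kinase, serum response factor, Myc partner and Myc target lists, of which 5, 5, 0, 1 and 5 had an unadjusted p under 0.05, and voom called only Mapk11 (−1.37, adjusted p = 0.0272, with 0.0272 to 0.726 over all alternatives).

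Atf3 had the largest difference of the 10 genes in both comparisons. The 3 tested genes above a mean of 10 TPM whose centred log2(TPM + 0.5) lay closest to that of Atf3 over the 6 mice were Ier3, Defb1, an epithelial antimicrobial peptide gene, and Rin1, a Ras effector gene. The root mean square difference was 0.236, 0.298 and 0.35, as a description over 6 mice that share the same groups. Defb1 measured 20.4 and 35.7 TPM in saline mice, 735 and 828 TPM in AP mice, and 340 and 251 TPM in pretreated mice. The order of groups, of the saline mice and of the pretreated mice was that of Atf3, while the AP mice ran in the opposite order. Rin1 measured 0.492 and 1.01, then 29.03 and 25.97, then 18.6 and 21.4 TPM.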

How the data were processed

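Total RNA of the pancreas of 6 mice was analysed, 2 in each of 3 groups taken from the sample labels. Trimming (Trimmomatic), alignment to mm10 (STAR) and read counting (HTSeq) were done by the authors. The deposited tables hold TPM per gene, and how TPM was made from counts is not given in the sources used here. Labels name both an mRNA and a ribosomal depletion library kit. TPM was taken as deposited, and 22490 of 22556 identifiers (99.7%) were found in GENCODE M21 (GRCm38).

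limma 3.58.1 in R 4.3.3 was fitted to log2(TPM + 0.5) over all 6 mice with a coefficient per group, with tests for 16814 genes averaging 1 TPM or more. The variance prior followed mean TPM times exon length, and p-values were two-sided. The code was tested on simulated data. Estimated reads came from low TPM steps of 7090 genes with 1 annotated transcript, of which between 97.4% and 97.9% were within 0.1 of a whole multiple below 10. Nothing in the labels says that replicates came from separate cages or days, so p-values measure the spread between these samples only. Same-numbered mice did not deviate together (r = 0.0075, 0.0351 and −0.0039), so numbers did not pair them. Genes of the lists are named if among the 3 largest rises or falls past the limits in each comparison with all 4 pairs of mice in 1 direction, except for 1 gene that is not reported here. The 10 genes and all lists were chosen with earlier results of these data known. Alternatives were other pseudocounts, filters, scalings, priors, voom, thresholds, a replicate block and leaving out each mouse. Figures used Python 3.11.15 and matplotlib 3.10.9.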

Additional observations from a re-analysis of the deposited data

How the results depend on the processing

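The count of the 10 genes called stayed at 6 to 8 higher and 0 lower in AP against saline mice, 0 in pretreated against AP mice and 6 to 8 higher in pretreated against saline mice under all alternatives, those leaving out a mouse included. With the replicate block the counts were 7, 0 and 7, and over all genes 2987 higher and 659 lower, 62 and 62, and 2799 and 488.

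Signs turned for few genes. With median-of-ratios scaling Myc was −0.098 in AP and −0.036 in pretreated against saline mice, and Plau −0.42 in the latter. Plau was −0.19 when genes above 1% were left out of the scaling and −0.24 with voom. Leaving out a mouse gave, in AP against saline mice, −0.12 to 0.79 for Myc. For pretreated against saline mice it gave −0.035 to 0.87 for Myc and −0.16 to 0.27 for Plau. Between pretreated and AP mice it gave −0.50 to 0.35 for Mycn, −0.20 to 0.024 for Rrp9, −0.89 to 0.062 for Fos and −0.0047 to 0.21 for Fosl2. The lone remaining sample was assumed to vary like the other groups.

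Counts over all genes moved more. In AP against saline mice, voom called 1783 higher and 978 lower. Between pretreated and saline mice, median-of-ratios scaling gave 1289 and 1003 and voom 1505 and 813. Between pretreated and AP mice, the counts were 74 and 68, with 14 and 14 under a prior following mean expression, 22 and 19 under 1 prior for all genes and 113 and 211 with voom. They were 0 and 0 without AP replicate 1, AP replicate 2 or pretreated replicate 2. Leaving out any of the other mice lowered both counts too, the lower count most without pretreated replicate 1. The cause was not tested. Depth limits Fosb and the saline values of Fosl1, Fos, Atf3 and Egr1.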

Other observations

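A further set of early genes is named here after their values were seen. Dusp4, a nuclear phosphatase of ERK and JNK, measured 2.75 and 2.77 TPM in saline mice, 24.4 and 31.2 TPM in AP mice, and 29.9 and 32.9 TPM in pretreated mice, while Dusp6, the cytoplasmic phosphatase of ERK, measured 16.9 and 11.7, then 53.6 and 52.4, then 29.6 and 33.5 TPM. Both rose in AP against saline mice (3.11 and 1.87, limma adjusted p = 8.7e-05 and 0.000537). With polyI:C, Dusp4 differed by 0.18 (adjusted p = 0.727) and Dusp6 by −0.74 (adjusted p = 0.143), so neither passed, and Dusp6 was lower in both mice without overlap.

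Btg2, an antiproliferative early gene, reached 1002 and 922 TPM in AP mice against 164 and 235 TPM in saline mice and stayed at 973 and 756 TPM in pretreated mice. Klf6, a zinc finger factor of injury, measured 77.5 and 76.9, then 306 and 369.6, then 224 and 194 TPM, a polyI:C difference of −0.69 with an adjusted p of 0.0596. Gadd45b and Gadd45g went the other way with polyI:C. Gadd45b measured 208 and 229 TPM in AP mice and 456 and 387 TPM in pretreated mice (0.94, adjusted p = 0.0795), and Gadd45g 82.8 and 91.1 TPM and then 194 and 182 TPM (1.11, adjusted p = 0.491).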
